A study of Oryza sativa with 6 samples.

Results

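The loci described here had many reads in both S-type lateral root libraries of rice and few or none in both nodal root libraries. They were chosen by their measured values: in the deposited table, log2((S-type + 1)/(nodal + 1)) had to be at least 5 under salt and under control, and both S-type values had to be at least 100. The rule found 88 of 37938 loci, 0.232% of all loci and 1.21% of the 7257 loci with values of at least 100 in both S-type libraries. Their difference between S-type and nodal roots was used to choose them, so it is described here and not tested.

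Rice makes its adult root system from nodal roots, which arise on the shoot base, and these carry lateral roots of a pair of kinds. S-type laterals are short, thin and do not branch, whereas L-type laterals are longer and thicker and can bear laterals of their own. Laterals make up much of the length of a rice root system and take up water and ions.

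Messenger RNA was sequenced from roots of cultivar IR29, described in the series as sensitive to salinity, in 6 groups of 1 library each: S-type, L-type and nodal roots after 7 days of 50 mM NaCl, and S-type, L-type and nodal roots of control plants. All plants were of this genotype and shared 1 growth regime. No label gives how many plants a library pooled, and no group was repeated, so there is no spread between replicates. Each library held 3839177 to 4249872 reads on loci. In bulk tissue, fewer cells of a type and less RNA per cell cannot be told apart.

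The table of 36773 gene IDs pairs none with a name, and the reference annotation at hand held 1 of those IDs and 0 of the 88, so the loci are given by ID, with no symbol and no function. Among the 88, 86 carried a rice gene ID and 2 carried none. Coordinates are those of the deposited files, whose build is IRGSP-1.0 per the submitters' processing notes. For 4 of the 88, the same ID also stood on another locus with the same span, which was not among the 88. In scaled reads, defined below, the other Os02g0155600 locus had 5.16 (salt) and 10.7 (control) in S-type roots but 26.2 and 17.8 in nodal roots. The other Os09g0494600 locus had 532.5 and 563.6 in S-type roots, more than its member, and 30.6 and 47.1 in nodal roots. The other loci of Os09g0565350 and Os10g0538450 had fewer S-type reads than their members. A further 2 of the 88 had spans of over 50000 bp, the longest 223082 bp, so that their reads may come from more than 1 gene. In all, 38 overlapped another listed locus, and 2 overlapped one with at least 50% of their own S-type reads; the library kit kept strand, per the labels, and no source at hand says whether the authors' counting did.

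The 88 loci formed a visible part of the S-type messenger RNA and almost none of the nodal one. They held 3.27% of all reads on loci in the salt S-type library (95% exact binomial interval 3.26 to 3.29) and 2.26% in the control S-type library (2.25 to 2.27). In the L-type libraries they held 0.388% under salt (0.382 to 0.395) and 0.354% under control (0.348 to 0.36). In the nodal libraries they held 0.0312% under salt (0.0295 to 0.033) and 0.0333% under control (0.0316 to 0.0351). These intervals cover counting error only. High S-type and low nodal values chose the loci, so the gap between the S-type and nodal shares is only a description. One locus, Os11g0428800, made up 19.0% of their summed reads in the salt S-type library; without it the 87 others held 2.65% of the salt S-type reads, 2.10% of the control S-type reads, 0.380% and 0.352% of the salt and control L-type reads, and 0.0311% and 0.0332% of the salt and control nodal reads.

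Reads were scaled to a common library size with TMM factors (a trimmed mean of log ratios that sets the libraries to a common level), and levels below are scaled reads unless said otherwise. Across the 88 loci, the salt S-type library ran from 105.7 through a median of 805.3 to 31215, and the control S-type library from 108.4 through 635.1 to 8954. The salt L-type library ran from 0 through 79.3 to 1300.1 and the control L-type library from 0 through 49.4 to 1670. The salt nodal library ran from 0 through 4.37 to 93.4 and the control nodal library from 0 through 6.21 to 97.7. The ranges of S-type and nodal levels did not overlap in either treatment, while the L-type range overlapped both. The rule bounds each nodal value only against the S-type value of the same locus. It thus favoured a separation of the S-type and nodal ranges without fixing it. Between S-type and nodal roots, the median log2 difference was 6.84 under salt and 6.41 under control, and by the rule of size defined below all 88 were higher in S-type roots, where 17.3% of all tested loci and 34.3% of the 7257 were under salt and 18.8% and 36.9% under control; nothing is read from this, since it chose the loci. In the nodal libraries 15 loci had 0 reads under salt and 12 under control, and 5 had 0 in both; in the L-type libraries 1 had 0 reads under salt and 2 under control.

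**Figure D1:**
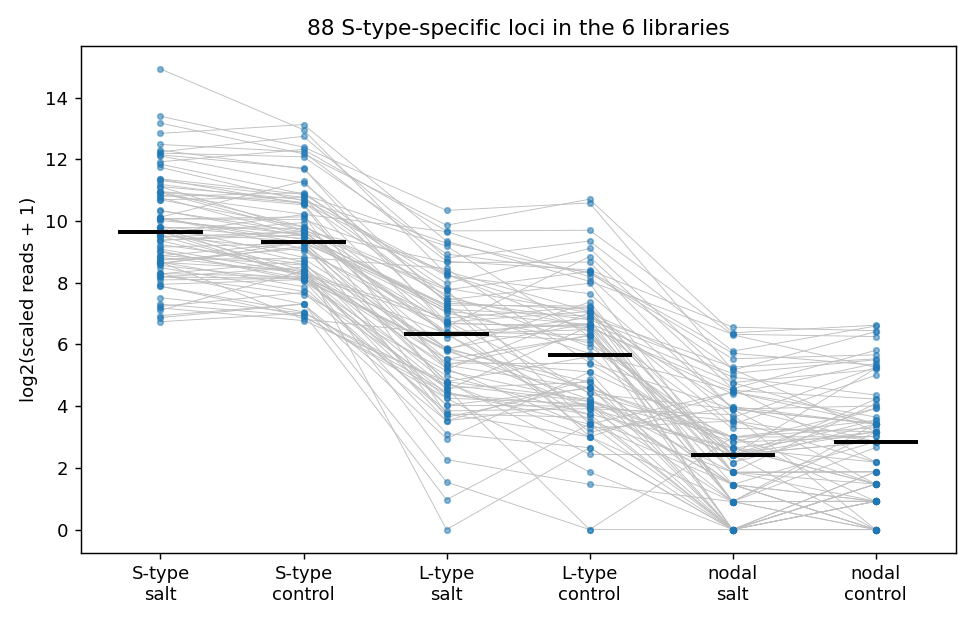
Levels of the 88 loci in each library, as log2(scaled reads + 1); each blue point is 1 locus, grey lines join the points of 1 locus and black bars are medians. The medians are 805.3 and 635.1 scaled reads in salt and control S-type roots, 79.3 and 49.4 in salt and control L-type roots, and 4.37 and 6.21 in salt and control nodal roots.

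Per length, the loci were also abundant in S-type roots. The rule favoured high S-type and low nodal values, so the S-type and nodal medians below are only a description. Their median FPKM (fragments scaled to transcript length and library depth, as the authors deposited it) was 158.5 in salt S-type and 131.0 in control S-type roots, against 52.8 and 51.7 for all 7257 loci with at least 100 in both S-type libraries. In L-type roots the median FPKM of the 88 loci was 14.7 under salt and 8.62 under control, against 40.1 and 38.1 for the 7257 loci. In nodal roots it was 1.06 under salt and 1.103 under control, against 31.8 and 32.7 for the 7257 loci. Over all 19469 loci tested the L-type median FPKM was 13.6 under salt and 12.2 under control, so the 88 loci lay slightly above it under salt and below it under control.

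The locus with the most S-type reads was Os11g0428800 (chromosome 11, 13723176 to 13724624). It had 31215 scaled reads in salt S-type and 7954 in control S-type roots, 307.8 in salt L-type and 83.8 in control L-type roots, and 2.62 in salt nodal and 2.66 in control nodal roots, which are 3 reads each. Its FPKM of 14323 in salt S-type roots and 3479 in control S-type roots was the highest of the 88 in both libraries. S-type roots had 101.4 times the scaled reads of L-type roots under salt (95% counting interval 90.8 to 113.5) and 94.95 times under control (77.6 to 117.5). The ratio of S-type to L-type reads at this locus was therefore about as large under salt as under control, within counting error, although its level was 3.92-fold higher (3.82 to 4.03) in the salt than in the control S-type library and 3.67-fold higher (2.91 to 4.67) in the salt than in the control L-type library.

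The next was Os07g0192000 (chromosome 7, 4969407 to 4971856). It had 7340 scaled reads in salt S-type and 8954 in control S-type roots, 651.0 in salt L-type and 263.7 in control L-type roots, and 79.5 in salt nodal and 75.5 in control nodal roots. Its S-type level was 11.3 times its L-type level under salt (10.4 to 12.2) and 34.0 times under control (30.2 to 38.3), so the distance between both kinds of lateral was smaller under salt. Nodal reads at this locus were few beside the S-type reads but well above 0.

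Just inside the fold threshold were Os03g0315400, at log2 5.84 under salt and 5.05 under control, and Os01g0558700, at 5.09 under salt and 6.93 under control. Just outside it were Os09g0379600, at 4.99 under salt and 5.42 under control, and Os04g0634500, at 5.13 under salt and 4.99 under control. No gap in the values separates the loci on either side of the threshold, and 117 further loci passed a log2 fold of 4, but not of 5, in both treatments.

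The L-type libraries were not used to choose the loci, but each comparison with L-type roots shares the S-type or nodal libraries with the rule. The rule set S-type and nodal levels far apart, which favours L-type levels between them, so the counts here are only a description. L-type levels lay strictly between the nodal and S-type levels at 87 of 88 loci under salt and 83 of 88 under control, and at 82 in both treatments. L-type levels lay below S-type levels at all 88 loci in both treatments. They were not above nodal levels at 1 locus under salt and at 5 under control, each at low counts.

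On a scale where 0 is the nodal and 1 the S-type level of log2(scaled reads + 1), the L-type position had a median of 0.47 under salt (quartiles 0.41 and 0.58, range 0 to 0.83) and 0.45 under control (quartiles 0.29 and 0.57, range -0.22 to 0.87). Positions between 0.25 and 0.75 were held by 77 loci under salt and 66 under control. Positions under 0.25 were held by 6 loci under salt and 17 under control, and positions over 0.75 by 5 under salt and 5 under control. Halfway on this log scale is a small share of the S-type level: the L-type level was a median of 9.08% of the S-type level under salt (quartiles 4.88 and 13.7, highest 43.5) and 7.23% under control (quartiles 4.37 and 13.9, highest 55.6). Among the 117 loci just below the threshold these medians were 18.7% under salt and 12.95% under control, with positions of 0.55 and 0.39. Across the 88 loci the position under salt and the position under control, which share no library, correlated at Pearson r = 0.38 and Spearman rho = 0.36, given as a description over loci that are not independent replicates.

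**Figure D2:**
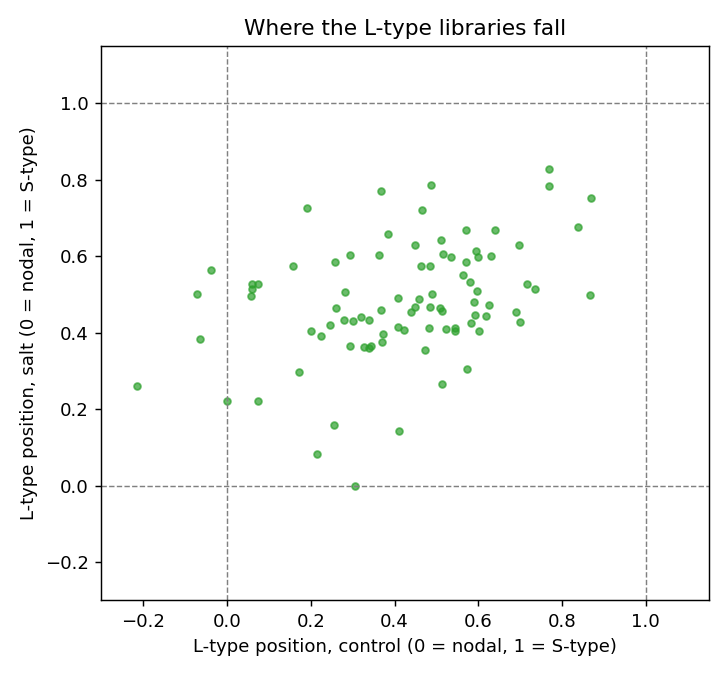
Position of the L-type level between the nodal level (0) and the S-type level (1) on the log2(scaled reads + 1) scale, under salt (vertical) and control (horizontal), for the 88 loci. Points gather around medians of 0.47 under salt and 0.45 under control, none reaches 1 in either treatment, and 4 lie below 0 under control.

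With 1 library a group, levels were compared by size alone: the higher library had to hold 50 scaled reads or more, the log2(scaled reads + 1) values had to differ by a factor of 2 or more, and the 95% counting interval of the ratio had to exclude 1. By this rule of size S-type roots were higher than L-type roots at 88 of 88 loci under salt, where 12.4% of all tested loci and 24.6% of the 7257 S-type-expressed loci were. Under control 87 of 88 were higher in S-type than in L-type roots, where 15.6% of all tested loci and 27.0% of the 7257 were. No locus of the 88 was lower in S-type than in L-type roots, where 10.4% of all tested loci were under salt and 7.57% under control. High S-type levels were required by the choice of the loci, so these shares too are only a description. The median S-type to L-type difference was 3.41 under salt and 3.74 under control on the log2 scale, against -0.07 and 0.07 over all tested loci. The 1 exception was Os07g0604300 under control, with 296.7 scaled reads in control S-type and 164.9 in control L-type roots, a ratio of 1.80 (1.48 to 2.19).

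L-type roots were higher than nodal roots by the same rule at 51 of 88 loci under salt and 44 under control, and lower at 0 in either treatment. The background was 8.03% of all tested loci and 15.7% of the 7257 under salt, and 11.8% and 20.2% under control; for lower levels it was 6.99% of all tested loci under salt and 12.6% under control. The low nodal levels were fixed by the choice of the loci, so these shares are read only as a description. The median difference was 3.23 under salt and 3.04 under control on the log2 scale, against 0.00 in both treatments over all tested loci. Of the 88, 39 were higher in L-type than in nodal roots in both treatments, 12 under salt only, 5 under control only and 32 in neither. All 32 had under 50 scaled reads in both L-type libraries, so the rule could not have counted them.

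These sets also differed in S-type level. The 39 loci higher in L-type roots in both treatments had median S-type levels of 1857 under salt and 1537 under control, with L-type medians of 181.6 and 133.1. The 32 loci counted in neither had S-type medians of 367.5 under salt and 283.6 under control, L-type medians of 19.1 and 14.5, and nodal medians of 1.31 and 0.89. Median L-type positions, which the division by L-type level partly fixes, were 0.41 under salt and 0.37 under control for the 32, and 0.57 and 0.53 for the 39.

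Among the loci with a mean S-type level of at least 200 scaled reads, 2 had the highest L-type position averaged over both treatments. Os01g0187300 (chromosome 1, 4665785 to 4669846) had 451.3 scaled reads in salt S-type and 315.7 in control S-type roots, 114.7 in salt L-type and 148.1 in control L-type roots, and 0.87 in salt nodal and 0 in control nodal roots. It was thus present in both kinds of lateral and almost absent from nodal reads, and its S-type level was 3.93 times (3.19 to 4.88) its L-type level under salt and 2.13 times (1.75 to 2.60) under control. Os06g0169001 (chromosome 6, 3474628 to 3476370) had 1857 scaled reads in salt S-type and 1190 in control S-type roots, 807.8 in salt L-type and 291.9 in control L-type roots, and 13.97 in salt nodal and 1.78 in control nodal roots. Against its nodal level, the control S-type level was 670.4 times higher (185.1 to 5543), an interval set by the 2 reads in the control nodal library.

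At the other end were loci whose L-type levels lay near nodal ones. Os10g0527800 (chromosome 10, 20493417 to 20499096) had 545.4 scaled reads in salt S-type and 311.0 in control S-type roots, 22.9 in salt L-type and 0 in control L-type roots, and 6.99 in salt nodal and 1.78 in control nodal roots. Under control its S-type level was at least 117.6-fold higher than its L-type level, taken against a floor of 3 reads in that library. Os03g0356526 (chromosome 3, 13679029 to 13679794) had 136.7 scaled reads in salt S-type and 334.8 in control S-type roots, 3.82 in salt L-type and 1.76 in control L-type roots, and 0.87 in salt nodal and 0.89 in control nodal roots. At both loci the L-type and nodal levels rested on few reads.

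To pool both treatments, limma was run once on the 6 libraries with additive terms for root type and salt, over the 19469 loci that had 10 or more reads in 2 or more libraries; all 88 did. The 2 residual degrees of freedom come from how evenly differences repeat between treatments and root types, not from replicates, so p-values do not measure the spread between plants. With Benjamini-Hochberg adjustment over all loci, 0 of the 88 passed 0.05 for L-type against nodal roots (0.0% of all loci, smallest adjusted p = 0.0985) and 0 for S-type against L-type roots, where 0.0% of all loci were higher and 0.0103% lower (smallest adjusted p among the 88 = 0.0693). These contrasts use the S-type or nodal values that chose the loci, so no call among the 88 is read as support. At an unadjusted p under 0.05 the fit held 76 of the 88 as higher in L-type than nodal roots, where 9.04% of all loci were, and 88 as higher in S-type than L-type roots, where 12.1% were. The edgeR test on recovered reads also called 0 in both (0.0% of all loci), whereas DESeq2 called 69 higher in L-type than nodal roots (2.8% of all loci) and 85 higher in S-type than L-type roots (5.69% of all loci), with 0 lower in S-type roots (2.84%). Without the control S-type library limma called 72 higher in L-type than nodal roots (4.47% of all loci) and 75 higher in S-type than L-type roots (4.46%). Without the salt S-type library it called 71 (4.35%) and 61 (4.4%). In these fits S-type roots are 1 library, assumed to vary like the other root types. Without any 1 of the other libraries both counts were 0. With a pseudocount of 5, 66 were called higher in S-type than L-type roots (1.9%).

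In S-type roots, salt levels lay above control levels at most of the loci. The salt S-type library was above the control S-type library at 61 of 88 loci and below it at 27, with a median log2 difference of 0.46 (quartiles -0.12 and 0.88, range -1.29 to 1.97). Over the 7257 S-type-expressed loci 52.7% were above 0, with a median of 0.03, and over all tested loci 45.1% were, with a median of -0.07. By the rule of size 15 of the 88 were higher under salt, where 3.2% of all tested loci and 2.92% of the 7257 were, and 2 were lower, where 8.08% and 5.06% were. The 117 loci just below the threshold had a median of 0.30, with 12 higher and 3 lower. Both S-type libraries were used to choose the loci, so these counts and shares are only a description. With 1 library a condition there is no test of them either.

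**Figure D3:**
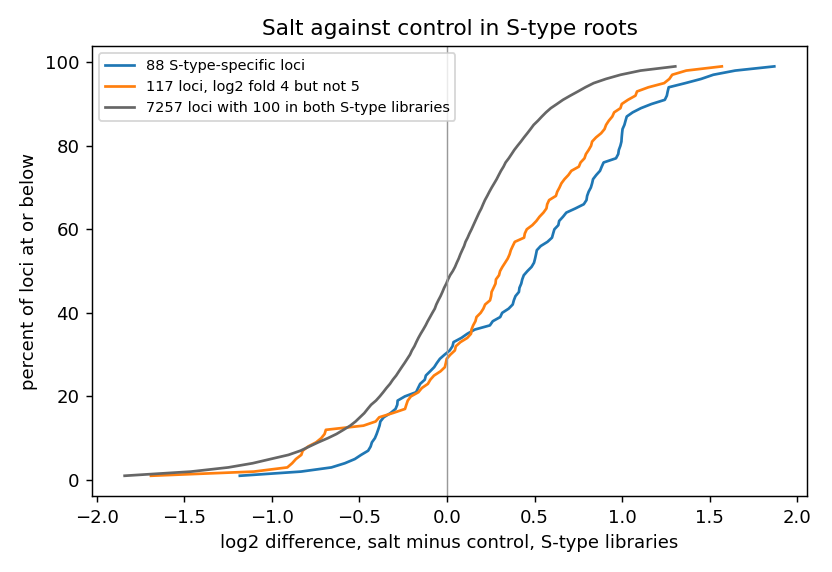
Cumulative percent of loci (vertical) at or below each log2 difference of salt minus control in the S-type libraries (horizontal), for the 88 loci, the 117 just below the threshold and the 7257 loci with at least 100 in both S-type libraries. The curve of the 88 loci crosses its median at 0.46 and that of the 117 at 0.30, both to the right of the 7257 at 0.03.

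The largest difference was that of Os11g0428800, described above. The next was Os07g0290200 (chromosome 7, 11090523 to 11252469), with 407.5 scaled reads in salt S-type and 112.0 in control S-type roots, 80.3 in salt L-type and 10.6 in control L-type roots, and 2.62 in salt nodal and 1.78 in control nodal roots. Its salt S-type level was 3.64-fold higher than control (2.88 to 4.63), and its locus is 1 of the 2 that span over 50000 bp. In the other direction, Os03g0356526 was 2.45-fold lower in salt than in control S-type roots. Os08g0364900 (chromosome 8, 16892348 to 16896435) was 2.25-fold lower, with 1117 scaled reads in salt S-type and 2509 in control S-type roots, 105.2 in salt L-type and 133.2 in control L-type roots, and 3.49 in salt nodal and 9.77 in control nodal roots. These were the 2 loci of the 88 that the rule of size counted as lower in S-type roots under salt.

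The salt difference in L-type roots involves no library that the rule used. The salt L-type library was above the control L-type library at 58 of 88 loci and below it at 30, with a median log2 difference of 0.42 (range -2.65 to 4.58), against 47.4% above 0 and a median of -0.05 over the 7257. By the rule of size 20 of the 88 were higher under salt, where 11.1% of all tested loci and 14.4% of the 7257 were, and 5 were lower, where 7.52% and 8.34% were. Only 56 of the 88 had the 50 scaled reads that the rule asks of the higher L-type library. Of those 56, 35.7% were higher and 8.93% lower; of 7067 other S-type-expressed loci with as many reads, 14.5% were higher and 8.49% lower. Among the 117 loci just below the threshold, of which 97 had as many reads, 42 were higher and 9 lower, with a median log2 difference of 0.73, above that of the 88.

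The 5 lower ones, named after their values were seen because they are so few, were Os01g0795000, Os02g0584200, Os06g0218900, Os07g0604300 and Os11g0249000. Os06g0218900 (chromosome 6, 6102184 to 6109026) had 4539 scaled reads in salt S-type and 3366 in control S-type roots, but 94.6 in salt L-type and 459.4 in control L-type roots, and 22.7 in salt nodal and 55.0 in control nodal roots. Its L-type position was 0.27 under salt and 0.51 under control. At all 5 the salt S-type level was above the control S-type level, the reverse of the L-type libraries.

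Some loci were close to nodal levels in control L-type roots and well above them in salt L-type roots. Of the 4 loci whose control L-type level lay below the control nodal level, Os08g0108100 had 217.0 scaled reads in salt L-type and 9.70 in control L-type roots, and Os02g0540700 had 154.9 in salt L-type and 7.05 in control L-type roots. Both had 21.0 in salt nodal roots; in control nodal roots Os08g0108100 had 11.5 and Os02g0540700 had 9.77. The other two, Os10g0527800 and Os12g0198200, had under 50 scaled reads in both L-type libraries. These 4 were named after their values were seen.

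Salt differences in S-type and L-type roots were only loosely related across the 88 loci. Pearson's r was 0.21 and Spearman's rho 0.18, and r was 0.24 over the 56 loci with at least 50 scaled reads in an L-type library, beside 0.18 over 7067 other S-type-expressed loci; these are descriptions over loci of the same 4 libraries. Counted by size, 7 loci were higher under salt in both kinds of lateral, 7 in S-type roots alone and 13 in L-type roots alone. In neither kind were 54 counted. The 32 loci with under 50 scaled reads in both L-type libraries could not be counted there, which partly fixes these numbers. Shares of all tested loci for these joint counts are not given here, so they are only a description. Among the 15 loci higher in salt S-type roots, with folds of 2.003 to 3.92, 9 were above 0 in L-type roots.

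**Figure D4:**
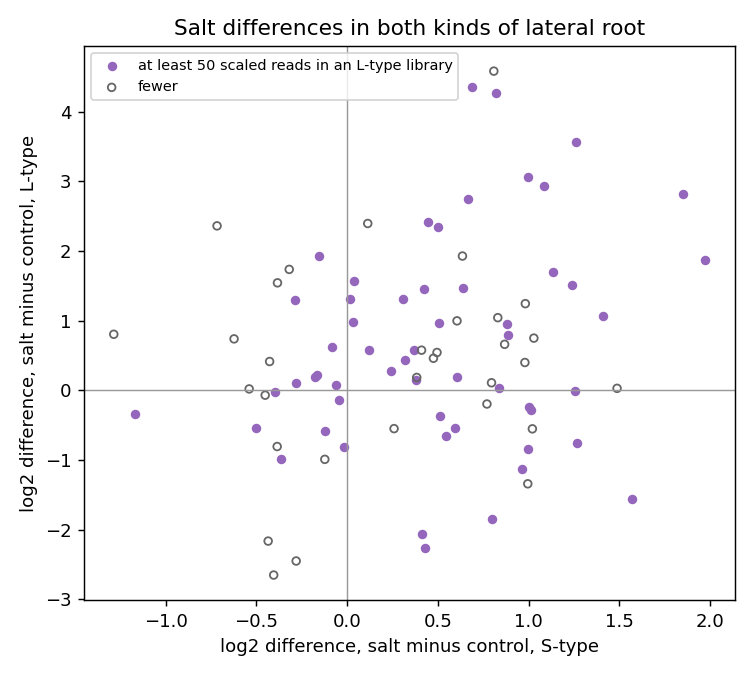
Log2 difference of salt minus control in the S-type libraries (horizontal) and the L-type libraries (vertical) for the 88 loci; filled points have at least 50 scaled reads in an L-type library and open points fewer. S-type differences run from -1.29 to 1.97 and L-type differences from -2.65 to 4.58, with a correlation of 0.21.

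In nodal roots few of the loci could be compared, since 8 of 88 reached 50 scaled reads in a nodal library. Of these, Os02g0802500 was higher under salt, with 78.6 scaled reads in salt nodal and 37.3 in control nodal roots, where 8.64% of all tested loci and 9.95% of the 7257 were higher. Os06g0218900 and Os11g0426400 were lower, Os11g0426400 with 34.9 in salt nodal and 84.3 in control nodal roots, where 7.86% and 9.19% were lower. The median log2 difference of the 88 was -0.01. In the additive fit over root types, limma called 0 of the 88 for salt against control (0.0% of all loci, smallest adjusted p = 0.359). Before adjustment 15 of the 88 were higher at a p under 0.05, where 6.0% of all loci were, and 2 lower, where 6.85% were. The fit includes the S-type and nodal values that chose the loci, so no call among the 88 is read as support. DESeq2 called 2 higher (0.93% of all loci) and 0 lower (1.03%), and the edgeR test called 0 (0.0%). Without the control S-type library limma called 2 higher (3.73% of all loci) and 2 lower (0.848%), and without the salt S-type library also 2 higher (3.54%) and 2 lower (0.832%).

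The authors' deposited table, which also compared single libraries, marked 15 of the 88 as significant between S-type and nodal roots under salt and 11 under control, the comparison the rule used (0.28% and 0.21% of the loci it tested were higher and marked). Of the same 88 it marked 2 between S-type and L-type roots under salt and 2 under control, each higher in S-type (0.0323% and 0.165% of the loci the authors' deposited table tested). Between L-type and nodal roots the authors' deposited table marked 2 of 77 tested under salt (0.0316%) and 1 of 69 tested under control (0.0163%), each higher in L-type. For salt against control the authors' deposited table marked 0 of the 88 tested in S-type roots, 0 of the 79 tested in L-type roots and 0 of the 34 tested in nodal roots; of the loci it tested, it marked 0.00567% as higher and 0.125% as lower in S-type roots, 0.0489% and 0.0% in L-type roots, and 0.0425% and 0.00531% in nodal roots.

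The loci lay on all 12 chromosomes. Chromosome 1 held 18, chromosome 2 held 12 and chromosome 3 held 11, while chromosome 12 held 1. As a share of the loci expressed in S-type roots on the same chromosome, this was 2.49% on chromosome 11, 2.14% on chromosome 9 and 1.70% on chromosome 1, and 0.309% on chromosome 12. How often loci placed at random would be neighbours was not tested. No 2 of the 88 were adjacent in the list of loci, and with at most 5 other loci between them there were 4 pairs. With at most 2 other loci between them there was 1 pair, Os09g0446700 and Os09g0447300 (chromosome 9, 16653108 to 16713794). The pair was not alike: Os09g0446700 had 116.0 scaled reads in salt S-type and 157.3 in control S-type roots, 6.69 in salt L-type and 33.5 in control L-type roots, and 0 in both nodal libraries. Os09g0447300 had 732.4 in salt S-type and 305.0 in control S-type roots, 105.2 in salt L-type and 7.94 in control L-type roots, and 14.9 in salt nodal and 6.21 in control nodal roots. The loci were short: their median span was 2527 bp (quartiles 1558 and 5472), against 4595 bp for the 7257 S-type-expressed loci and 3884 bp for all tested loci.

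None of the 88 IDs stood on any of 5 gene lists written down from general knowledge, whose membership no file here could check. The lists held 13 IDs for jasmonate synthesis and signalling (12 tested, 10 with at least 100 in both S-type libraries), 11 for labdane-related diterpenoids (1 tested, 0 with 100), 6 for pathogenesis-related proteins (5 tested, 0 with 100), 9 for phenylalanine ammonia-lyases (5 tested, 4 with 100) and 6 for abscisic acid synthesis and breakdown (4 tested, 2 with 100). The 88 were 1.21% of the 7257 loci with at least 100 in both S-type libraries. At so small a share a count of 0 says little, also about levels, even for the jasmonate list with 10 IDs at that level. Jasmonate IDs summed to 9318 (salt) and 13641 (control) scaled reads in S-type roots, against 821 and 1983 in nodal roots. In L-type roots the jasmonate sums were 3143 under salt and 4636 under control. Phenylalanine ammonia-lyase IDs summed to 7499 and 23241 in S-type roots, against 44046 and 23178 in nodal roots. In L-type roots the lyase sums were 21851 under salt and 11439 under control. A list of 11 photosynthesis IDs, as a marker of shoot tissue, had 10 tested and 0 among the 88. Its summed scaled reads were 19.3 in salt S-type and 42.9 in control S-type roots, 683.5 in salt L-type and 106.7 in control L-type roots, and 1763 in salt nodal and 91.4 in control nodal roots. These reads were thus few in the libraries where the 88 loci were high, and their part in the L-type and nodal values was not tested.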

How the data were processed

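The members and lists were chosen with earlier results of these data known. Per the submitters' processing notes, the authors used Cuffdiff 2.2.1 and Cufflinks 2.2.1, TopHat2 2.0.11, Bowtie and Trimmomatic 0.32, on build IRGSP-1.0. For every locus the deposited signal is the read number divided by 1 size factor per library, as its steps show; dividing by the step gave whole reads (within 0.01) for 99.89% to 99.98% of the values above 0. FPKM, with p-values and q-values of 15 pairwise tests, were also deposited by the authors.

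Because the values were a scaled signal, limma 3.58.1 (R 4.3.3) on log2(scaled reads + 1) with TMM scaling (mean library 4013580 reads) was the test. The method was tested on simulated data. edgeR 4.0.16, which called 0 of all loci for L-type against nodal, S-type against L-type and salt, and DESeq2 1.42.0 ran on recovered reads as alternatives. Loci without an ID numbered 828. Intervals of ratios are 95% exact conditional binomial (Clopper-Pearson) and, like the floor of 3 reads per library, cover counting error only.

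Named loci were at most 2 per direction: most S-type reads, highest and lowest L-type position (mean S-type level of at least 200 scaled reads), largest and smallest S-type salt difference (at least 200 in the higher library), both sides of the fold threshold, and the ends of runs of neighbours. Others were named after their values were seen. Other scalings, pseudocounts, minima, thresholds and left-out libraries were tried as alternatives.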

Additional observations from a re-analysis of the deposited data

Results flagged for a closer look

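Os07g0604300 (chromosome 7, 24751786 to 24755315) moved in opposite directions under salt in both kinds of lateral root by the rule of size. Its log2 difference of salt minus control was 1.57 in S-type roots, against -1.56 in L-type roots, and the difference between them was not tested, since each is 1 library against 1. It had 884.6 scaled reads in salt S-type and 296.7 in control S-type roots, 55.5 in salt L-type and 164.9 in control L-type roots, and 2.62 in salt nodal and 2.66 in control nodal roots. S-type reads were 16.0 times L-type reads under salt (95% counting interval 12.2 to 21.2) and 1.80 times under control (1.48 to 2.19). It overlaps 1 other listed locus. No other of the 88 loci was counted in opposite directions in the S-type and L-type libraries.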

How the results depend on the processing

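The rule gave 205 loci at a log2 fold of 4 and 42 at 6, and between 59 (authors' FPKM) and 107 (minimum of 50) under the other settings; all 88 were among the loci of each looser setting, and each stricter setting kept only loci of the 88. With a minimum of 10 scaled reads, 80 loci were higher in L-type than nodal roots under salt and 70 under control; with 200, 20 and 14. At 4-fold, 0 were higher and 0 lower under salt in S-type roots, and 9 higher and 2 lower in L-type roots, where a minimum of 200 gave 8 and 2. In nodal roots a minimum of 10 gave 7 higher and 8 lower, and 4-fold or a minimum of 200 gave 0 and 0. Median-of-ratios or the authors' size factors gave 0 higher there. Shares of all tested loci at these settings of the rule of size are not given here. The counts therefore show only how the numbers move with the setting. In the additive fit, DESeq2 called 69 (L-type against nodal), 85 (S-type against L-type) and 2 (salt) higher, and a pseudocount of 5 gave 66 for S-type against L-type. Leaving out 1 library gave 0 to 72, 0 to 75 and 0 to 2 higher, and 0 to 2 lower under salt. Runs held 0 loci with no other locus between and 8 with at most 5. The cause of these changes was not tested. Of the other values, 100 were counts of 0 in both settings, which say nothing of stability, and 71 counts and medians stayed within 1.5 times, or within 0.1 for L-type positions, which ran from 0.42 to 0.51 under salt and 0.35 to 0.50 under control. Library totals moved the median of all loci by over 0.1, to -0.57 (salt) and -0.30 (control) for S-type against nodal, -0.51 and -0.41 for S-type against L-type, and 0.13 for L-type against nodal under control. The loci above 0 for salt in S-type roots then numbered 58, and 63 with both other scalings. Leaving out the 6 loci of shared ID or long span, chosen after the data were seen, left 82 loci, of which 14 were higher and 2 lower under salt in S-type roots. No paired analysis was possible because each group is 1 library and the labels give no replicate number.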
